A study of Rattus norvegicus with 24 samples.

Results

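Circadian clock genes were measured by microarray in small vessels taken from rat cerebral cortex, and 9 of the 14218 genes named in the array annotation are described here, with 20 of its 31099 probes. The members were chosen by name, as every probe whose only gene symbol in the platform annotation was Nr1d2, Per1, Per2, Per3, Cry2, Hlf, Bhlhe40, Bhlhe41 or Clock, and each probe was kept separate. These names were chosen with earlier results of these data known. Counts of members beside shares of all probes are therefore no test of the group. Each gene had 1 to 4 probes. The study compared 3 surgeries with 8 arrays each. HAL rats first received a portocaval anastomosis, a shunt by which blood from the gut bypasses the liver, and 24 h afterwards their hepatic artery was tied off. HEP rats received the same shunt, and 24 h afterwards a total hepatectomy, so that no liver was left. The Sham group had a fictitious surgery in 2 steps. All rats were killed by decapitation 8 to 12 h after the last step, and the time within this span and the hour of the day were not given per array. Strain, sex and age are not in the labels, nor whether every array stands for its own animal, so the spread behind each p-value is that between arrays, which may be technical. The HAL and HEP rats all carry the anastomosis, so no group shows its effect alone.

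The circadian clock is a loop of transcription found in most cells, those of brain vessels included. CLOCK and its partner BMAL1 bind E-boxes and switch on the Per and Cry genes, whose proteins return to the nucleus and block CLOCK and BMAL1. REV-ERB beta, the product of Nr1d2, represses Bmal1 in a second loop, BHLHE40 and BHLHE41 compete for E-boxes, and HLF belongs to a family of activators that bind D-boxes. The levels of most of these genes thus follow the hour of the day, and Per1 is also known to be induced quickly by glucocorticoids and other signals.

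Promoter windows show which of these elements the genes carry, and are given for Per2, Bhlhe40 and Bhlhe41, whose windows hold the letters of a D-box or an E-box. RefSeq windows of assembly GRCr8, from 250 bases before to 50 bases after a transcript start, were found for 8 of the 9 genes. The D-box TTATGTAA was in the window of Per2 and of no other member, against 0.893% of all 33469 windows. The E-box CACGTG was in those of Bhlhe40 and Bhlhe41 (6.42% of all windows). The variant CACGTT, added after the Per2 sequence was seen, was in those of Per2 and Cry2 (4.83% of all windows). The letters of the cyclic AMP element TGACGTCA and of the glucocorticoid element (AGAACA and TGTTCT with 3 bases between them) were in none of the 8 (1.83% and 0.0149% of all windows). Both strands were searched, no motif overlapped another, and a match is a run of letters, not a binding site. In the windows below the matches are in capitals. The Per2 window is chr9:99496944-99497243 on the minus strand, with the D-box starting 192 bases and CACGTT 62 bases before the transcript start. The 60 bases of Bhlhe40 are chr4:143174203-143174262 on the plus strand and those of Bhlhe41 chr4:180569371-180569430 on the minus strand, with the E-box starting 220 and 48 bases before the start.
Per2: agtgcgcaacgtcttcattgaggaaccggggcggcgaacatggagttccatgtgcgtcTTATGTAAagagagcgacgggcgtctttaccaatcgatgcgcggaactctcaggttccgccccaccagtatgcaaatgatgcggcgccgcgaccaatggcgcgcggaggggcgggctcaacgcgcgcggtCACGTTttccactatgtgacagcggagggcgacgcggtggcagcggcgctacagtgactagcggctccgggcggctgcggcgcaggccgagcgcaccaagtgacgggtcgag
Bhlhe40: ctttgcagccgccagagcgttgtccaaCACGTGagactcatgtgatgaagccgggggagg
Bhlhe41: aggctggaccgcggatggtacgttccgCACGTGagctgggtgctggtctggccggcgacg

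The table provided here holds only the decimals of the log2 signals, without their integers, and this limits what can be said of every probe. A signal below 10 was taken to have 9 decimals and one from 10 on to have 8, so that the number of digits tells on which side of 10 a full-length cell lies. Of the 20 clock probes 8 lay near 10, with cells of 9 digits on 1 to 14 arrays, and for these a reading was made as 9 or 10 plus the decimals, with shorter cells left out. Another 2 probes, of Nr1d2 and Per2, had no cell of 9 digits and were taken to lie at 10 or above on all 24 arrays. The other 10 had cells of 9 digits on more than 14 arrays and were taken to lie below 10. Any shorter cells of these could also be signals of 10 or more. These 12 were compared by their decimals alone, which turn through a full circle with each log2 unit. A difference in decimals is therefore known only up to whole units: the 0.41 of a Per2 probe described further on can be a rise of that size, a fall of 0.59 or a larger change, and a change of exactly 1 unit is not seen. For limma the circle was opened opposite the circular mean of the 24 arrays, and where the decimals spread over the whole circle the signed difference also depends on that opening. Readings near 10 share this limit, since a signal of 11 or more with 8 decimals is read as 10. A signal below 10 that lost 1 zero also has 8 digits and is read as 10. Single readings of 10 or more, and counts of them, are therefore not certain.

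Nr1d2 was the only clock gene with a call. In limma with Benjamini-Hochberg adjustment within each of the 3 kinds of probe, 2 of the 20 probes passed an adjusted p of 0.05 in HAL minus Sham, both of Nr1d2, where 0.437% of all probes passed. With the opening moved up by 0.1, 1 of these 2 no longer passed. In HEP minus Sham 1 passed, again of Nr1d2, where 0.222% of all probes did. By kind of probe these shares were 3.72% near 10, 1.6% at 10 or above and 0.0413% below 10 in HAL. For HEP they were 2.18%, 0.673% and 0.00375%. The clock probes were 8, 2 and 10 of these kinds, against 2527, 1933 and 26639 of all probes. A share over all probes is thus lower than one matched to the kinds of the clock probes. In HAL minus HEP 0 of the 20 passed, as did 0% of all probes. At an unadjusted p under 0.05 in limma there were 3, 5 and 2 clock probes in these comparisons, against 12.1%, 9.4% and 6.66% of all probes. The median difference of the 20 probes was -0.036 in HAL and -0.0029 in HEP, against 0.011 and 0.0058 over all probes. An exact permutation test of the decimals as angles, with no direction, called 0 clock probes after adjustment, against 0.0804% of all probes in HAL and 0% in the other comparisons. It had an unadjusted p under 0.05 for 4, 4 and 1 of them, against 12.4%, 9.91% and 6.63% of all probes. For probes near 10 this test included the short cells, read nearest to the other arrays. Groups did not overlap on 3 clock probes between HAL and Sham, on 1 between HEP and Sham and on 0 between HAL and HEP, against 0.688%, 0.328% and 0.212% of all probes. The 3 in HAL were 1 of each kind, where the share was 2.69% near 10, 1.14% at 10 or above and 0.465% below 10. The 1 in HEP lay near 10, where it was 0.752%.

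**Figure D1:**
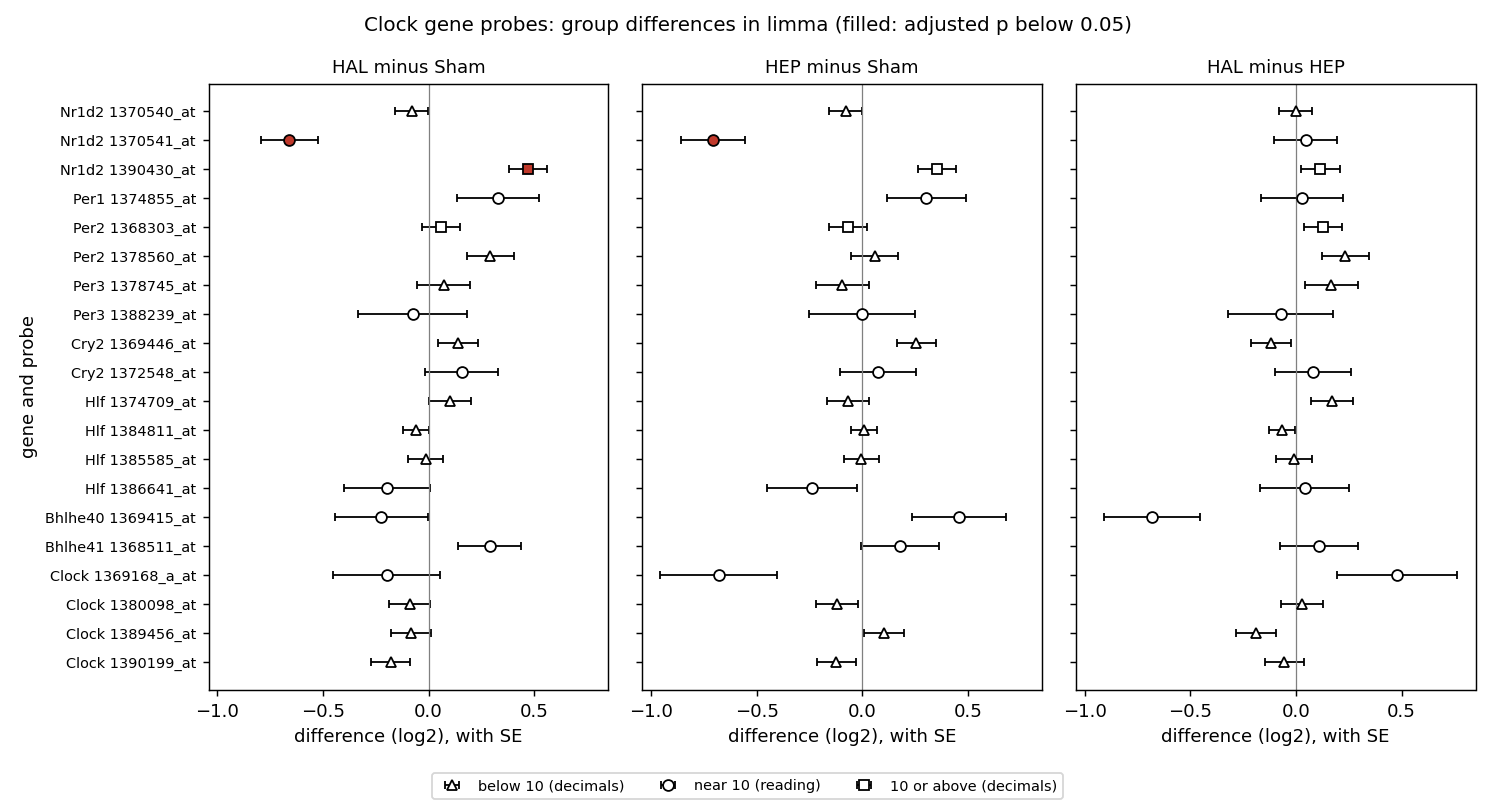
Difference between group means on the log2 scale with its SE in limma for each of the 20 clock gene probes (circles, readings near 10; squares and triangles, decimals of probes at 10 or above and below 10), with filled symbols at an adjusted p below 0.05. Filled symbols are 2 Nr1d2 probes in HAL minus Sham and 1 in HEP minus Sham. The sign of squares and triangles is known only up to whole log2 units.

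Nr1d2, whose product REV-ERB beta represses Bmal1, had a probe near 10 that read lower in both models. Sham readings ran from 10.73 over a median of 10.79 to 10.95 on the 7 arrays read (probe 1370541_at). HAL readings ran from 9.51 over 10.18 to 10.48 on 8 arrays, and HEP readings from 9.77 over 10.16 to 10.29 on 5 arrays, with 1 Sham and 3 HEP cells too short to be read. Neither group overlapped Sham on the arrays read, as held for 2.69% of probes near 10 in HAL and 0.752% in HEP. Read with leading zeros, the short cell of Sham array 7 would stand at 10.06, within the HAL and HEP ranges, and the differences given next would be -0.57 and -0.64 (adjusted p = 0.0201 and 0.0160 in limma). The mean was 10.81 ± 0.089 in Sham (SD, n = 7), 10.15 ± 0.31 in HAL (SD, n = 8) and 10.10 ± 0.20 in HEP (SD, n = 5). The difference was -0.66 in HAL (SE 0.14, adjusted p = 0.00749 in limma), where 3.72% of probes near 10 passed, and -0.71 in HEP (SE 0.15, adjusted p = 0.0174 in limma), where 2.18% did. Cells of 9 digits, which lie below 10 whatever the integer, were found on HAL arrays 2 and 3 and on HEP array 1, and on no Sham array. By decimals alone the circular means of HAL and HEP lay 0.47 and 0.25 above Sham or 0.53 and 0.75 below it, so the direction rests on these 3 arrays. These circular means include the 1 Sham and 3 HEP short cells, read nearest to the other arrays. HAL array 2 is also 1 of 3 arrays with a low median over all probes near 10 (9.95, against 10.12 to 10.20 on the arrays other than it, Sham array 3 and HAL array 5), and without these 3 the differences were -0.60 and -0.72 (adjusted p = 0.0215 and 0.0120 in limma). Without HEP array 1 the HEP difference was -0.62, just short of the threshold (adjusted p = 0.0517 in limma). No HEP cell of 9 digits is then left, so the sign of that difference rests on the integer of 10 taken for each reading.

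**Figure D2:**
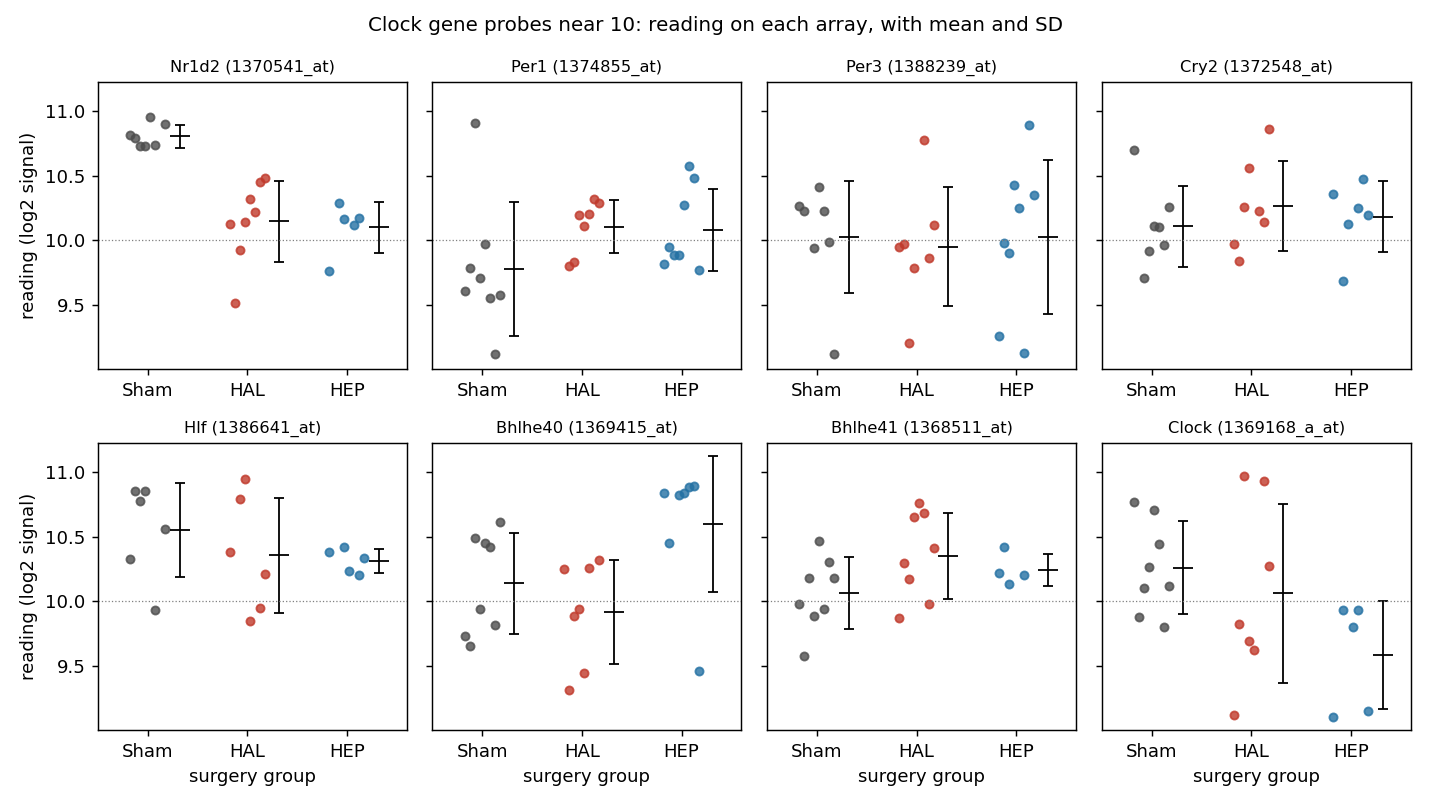
Reading on the log2 scale of the 8 clock gene probes near 10 on each array (points) by surgery group, with the mean and SD beside them and the level of 10 dotted. The Nr1d2 readings in Sham, 10.73 to 10.95, lie above all HAL and HEP readings, and in the other 7 probes the groups overlap.

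A second Nr1d2 probe (1390430_at), at 10 or above on all arrays, was set apart from Sham in its decimals in HAL. Sham decimals ran from 0.357 over a median of 0.524 to 0.638. HAL decimals ran from 0.724 through 0 to 0.161, with a median of 0.048, and had no overlap with Sham, as held for 1.14% of probes of this kind. HEP decimals were wider, from 0.242 to 0.992 with a median of 0.926, and overlapped Sham, where 0.828% of these probes did not. By circular means HAL lay 0.49 above or 0.51 below Sham, so the decimals give no direction, and HEP lay 0.41 above or 0.59 below. In limma the deviations differed by 0.47 in HAL (SE 0.091, adjusted p = 0.00893), where 1.6% of these probes passed, and by 0.35 in HEP (SE 0.091, adjusted p = 0.0658), where 0.673% did. The exact permutation test gave p = 0.000932 in HAL (adjusted p = 0.0546) and p = 0.00808 in HEP (adjusted p = 0.152). The HAL call in limma depended on where the circle was opened, since the decimals of the 24 arrays had hardly a common centre (resultant length 0.083 on a scale from 0 for even spread to 1 for identical decimals). With the opening moved up by 0.1 the difference was 0.22 in HAL (adjusted p = 0.449 in limma) and 0.10 in HEP, and moved down by 0.1 it was 0.47 in HAL (adjusted p = 0.0227 in limma) and 0.23 in HEP. With the 1 short cell, on HAL array 6, read with leading zeros the centre went from 0.790 to 0.951, 3 arrays turned by a whole unit, and the HAL difference was 0.26 (adjusted p = 0.306 in limma). The HEP difference passed without HEP array 8, with the opening kept as set by all 24 arrays (adjusted p = 0.0231 in limma). The last Nr1d2 probe, below 10, had circular means of 0.820 in Sham, 0.729 in HAL and 0.726 in HEP, and its groups overlapped. Its differences of -0.079 and -0.078 (SE 0.078) did not pass (adjusted p = 0.746 and 0.842 in limma).

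**Figure D3:**
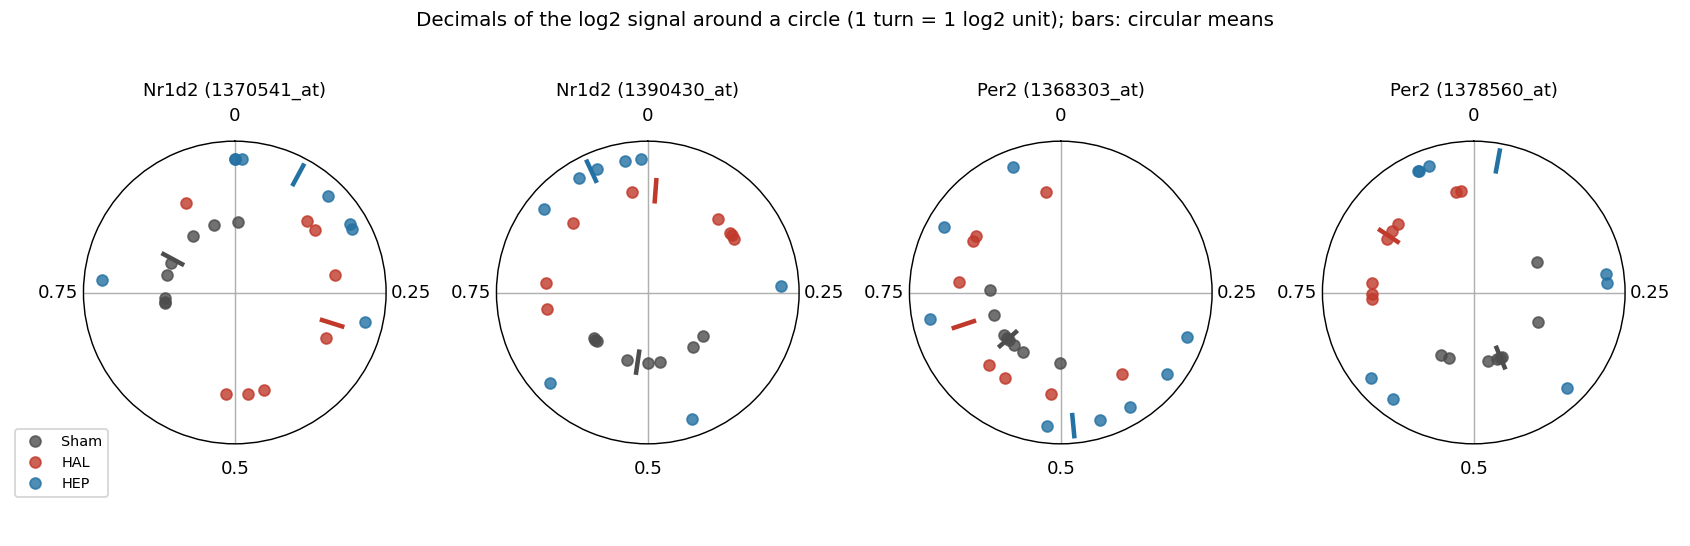
Decimals of the log2 signal of 2 Nr1d2 and 2 Per2 probes around a circle on which 1 turn is 1 log2 unit. Points are arrays, with Sham on the inner ring, HAL on the middle ring and HEP on the outer ring, and short bars are circular means. The HAL points of Nr1d2 probe 1390430_at (0.724 through 0 to 0.161) and of Per2 probe 1378560_at (0.740 to 0.980) lie outside the arcs of the Sham points (0.357 to 0.638 and 0.178 to 0.577).

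Per2, a repressor of the core loop with the D-box shown above, had a probe below 10 (1378560_at) with cells of 9 digits on all 24 arrays, so none of its decimals had to be inferred. Sham decimals ran from 0.178 over a median of 0.444 to 0.577. HAL decimals ran from 0.740 over 0.846 to 0.980. The groups did not overlap, as held for 0.465% of probes below 10. HAL lay 0.41 above or 0.59 below Sham by circular means, and the exact permutation test gave p = 0.000155, the smallest it can give with 8 arrays against 8, which did not pass over the 26639 probes below 10 (adjusted p = 0.0753). The signed difference in limma was 0.29 (SE 0.11, adjusted p = 0.307), where 0.0413% of probes below 10 passed. HEP decimals were spread over most of the circle, from 0.932 through 0 to 0.639, and overlapped Sham. The exact permutation test gave p = 0.154 (adjusted p = 0.687) and limma a difference of 0.060 (adjusted p = 0.937), where 0.00375% of probes below 10 passed. With the opening of the circle moved up by 0.1 that difference was 0.31 (adjusted p = 0.366 in limma), and moved down by 0.1 the HAL difference was 0.42 (adjusted p = 0.0996 in limma).

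The other Per2 probe (1368303_at), at 10 or above, was tight in Sham, with decimals from 0.501 over 0.635 to 0.755 and full length on 8 of 8 arrays. In HAL 5 of 8 cells and in HEP 3 of 8 were short by 1 or more digits, which means that a leading or a trailing zero was lost. Each such cell can be read in several ways. Read nearest to the other arrays, HAL ran from 0.398 to 0.977 and HEP from 0.304 to 0.942, the differences were 0.059 and -0.068 (SE 0.089), and neither passed in limma (adjusted p = 0.803 and 0.805). Read with leading zeros, the differences were 0.32 and 0.039 (adjusted p = 0.121 and 0.931 in limma). With the short cells left missing they were 0.18 and -0.19 (adjusted p = 0.395 and 0.310 in limma), and HAL minus HEP was 0.37 (adjusted p = 0.370 in limma), against 0.13 in the first reading.

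Per1, the period gene that responds fastest to hormones, had 1 probe, near 10. It read from 9.12 over 9.65 to 10.91 in Sham, from 9.80 over 10.19 to 10.32 in HAL and from 9.77 over 9.92 to 10.57 in HEP. Readings of 10 or more were found in Sham on 1 of 8 arrays, in HAL on 5 of 7 and in HEP on 3 of 8, with Sham array 3 above all others as read. Its cell was the only one of 8 digits in Sham, against 7 of 9 digits, and may be a signal below 10 that lost a zero. The differences were 0.33 in HAL (SE 0.19, adjusted p = 0.406 in limma) and 0.30 in HEP (SE 0.19, adjusted p = 0.492 in limma), and the groups overlapped. Without Sham array 3 the differences were 0.49 and 0.46 (adjusted p = 0.0786 and 0.118 in limma). Per3, the period gene least needed for the rhythm itself, had a mean of 10.03 ± 0.43 in Sham (SD, n = 7), 9.95 ± 0.46 in HAL (SD, n = 7) and 10.02 ± 0.60 in HEP (SD, n = 8) by its probe near 10. The spread within each group exceeded the differences of -0.074 and -0.0018 (SE 0.26 and 0.25). Without Sham array 8, the lowest at 9.12, they were -0.22 and -0.15 (adjusted p = 0.726 and 0.839 in limma). Its probe below 10 was loosely placed in all groups, with resultant lengths of 0.328, 0.411 and 0.344 in Sham, HAL and HEP. Its differences of 0.072 and -0.095 did not pass (adjusted p = 0.870 and 0.898 in limma), and the HEP value was 0.28 with the opening moved up by 0.1.

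Cry2, a cryptochrome that represses CLOCK and BMAL1 together with the PER proteins, had a mean reading near 10 of 10.11 ± 0.31 in Sham (SD, n = 7), 10.27 ± 0.35 in HAL (SD, n = 7) and 10.18 ± 0.27 in HEP (SD, n = 6). The differences of 0.16 and 0.075 (SE 0.17 and 0.18) did not pass (adjusted p = 0.711 and 0.913 in limma). The probe below 10 had circular means of 0.076 in Sham, 0.238 in HAL and 0.308 in HEP. The Sham decimals were widely spread (resultant length 0.276). In limma the HEP difference of 0.26 (SE 0.094) had an unadjusted p of 0.0105 but an adjusted p of 0.369, and that of HAL was 0.14 (adjusted p = 0.606). With the opening moved up by 0.1 they were 0.0064 and -0.11.

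Bhlhe40, a repressor that binds E-boxes and carries one in its own window, read lower in HAL than in HEP at the median. It read from 9.65 over 10.18 to 10.62 in Sham, from 9.31 over 9.94 to 10.32 in HAL and from 9.46 over 10.84 to 10.89 in HEP. In HEP 6 of 7 arrays read lay at 10 or above, against 4 of 8 in Sham and 3 of 7 in HAL, and HEP array 8 stood alone below. HAL minus HEP was -0.68 (SE 0.23), with an unadjusted p of 0.00650 that did not pass over the 2526 probes near 10 that were tested (adjusted p = 0.490 in limma). Without the 3 arrays of low median it was -0.47 (adjusted p = 0.847 in limma). HEP minus Sham was 0.46 (SE 0.22, adjusted p = 0.341 in limma), and 0.65 without HEP array 8, where it passed (adjusted p = 0.0446 in limma). HAL minus Sham was -0.22 (SE 0.22, adjusted p = 0.669 in limma). Bhlhe41, its close relative, read at a median of 10.08 in Sham, 10.36 in HAL and 10.21 in HEP. HEP had only 4 readings, between 10.13 and 10.42, and the differences of 0.29 in HAL (SE 0.15) and 0.18 in HEP (SE 0.18) did not pass (adjusted p = 0.337 and 0.730 in limma).

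Hlf, the D-box activator, had 4 probes and no call. Its tightest probe lay below 10, with circular means of 0.533 in Sham, 0.472 in HAL and 0.544 in HEP and resultant lengths of 0.868, 0.803 and 0.841. The differences there were -0.058 and 0.0074 (SE 0.061), the smallest error of the 20 probes (adjusted p = 0.762 and 0.991 in limma). A second probe below 10 had differences of -0.013 and -0.0040 (SE 0.083). The third, whose Sham decimals lay between 0.707 and 0.026 across 0, had differences of 0.10 and -0.067 (SE 0.10). By the exact permutation test it had p = 0.0432 in HEP (adjusted p = 0.515). The probe near 10 read at 10.55 ± 0.37 in Sham (SD, n = 6), 10.36 ± 0.45 in HAL (SD, n = 6) and 10.31 ± 0.094 in HEP (SD, n = 5), and its differences of -0.20 and -0.24 (SE 0.20 and 0.21) did not pass (adjusted p = 0.690 and 0.683 in limma). On this probe too the exact permutation test had a low unadjusted value in HEP (p = 0.0337, adjusted p = 0.414). That test included 2 short Sham and 3 short HEP cells, read nearest to the other arrays.

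Clock, which encodes the activator itself, had 4 probes that gave no common picture. The probe near 10 read from 9.80 over 10.19 to 10.77 in Sham, from 9.12 over 9.83 to 10.97 in HAL and from 9.10 over 9.80 to 9.93 in HEP. Readings of 10 or more were found in Sham on 6 of 8 arrays, in HAL on 3 of 7 and in HEP on 0 of 5. The 3 short HEP cells would stand above 10 if read with leading zeros, with a difference from Sham of -0.50 (adjusted p = 0.320 in limma). As read, HEP minus Sham was -0.68 (SE 0.28), with an unadjusted p of 0.0230 that did not pass (adjusted p = 0.233 in limma), and the exact permutation test of its decimals gave p = 0.545. That test included the 3 short HEP cells, read nearest to the other arrays. The 3 probes below 10 had differences of -0.12, 0.10 and -0.12 in HEP and of -0.090, -0.084 and -0.18 in HAL, each with an SE between 0.093 and 0.099. None passed, and their adjusted p lay between 0.467 and 0.818 in limma. With the opening moved up by 0.1 the first of these in HEP was 0.13 and the second in HAL 0.17, so their signs were not settled.

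The other genes of the clock were a list of 25 symbols. It held casein kinases, ubiquitin ligases and orphan receptors that tune the loop, and also Bmal1, Cry1, Nr1d1, Npas2 and Dbp. The list had 34 probes of 19 genes here, 0 of them near 10. In limma 0 of 34 passed in each comparison, with 7, 5 and 3 at an unadjusted p under 0.05 in HAL, HEP and HAL minus HEP. Of all probes 0.437%, 0.222% and 0% passed, and 12.1%, 9.4% and 6.66% had an unadjusted p under 0.05. Of the 34 probes 32 lay below 10, where 0.0413% of all probes passed in HAL and 0.00375% in HEP. A count of 0 was thus likely there and does not show that these genes were unchanged. The median difference of the 34 probes was 0.012 in HAL and 0.052 in HEP, against 0.011 and 0.0058 over all probes. The smallest unadjusted p in HAL was that of Nono, a binding partner of the PER proteins, on a probe at 10 or above, lower by the decimals (-0.20, SE 0.063, limma adjusted p = 0.0987). In HEP it was that of Sik1, a kinase that limits the response of the clock to light, higher by the decimals (0.26, SE 0.064, limma adjusted p = 0.134). In HAL minus HEP it was that of Csnk1d, a kinase of the PER proteins, at -0.29 (SE 0.092, limma adjusted p = 0.547). The other Nono probe differed by -0.043 in HAL and the other Sik1 probe by 0.032 in HEP (limma adjusted p = 0.904 and 0.964). Over the other Csnk1d probes HAL minus HEP ran from -0.085 to 0.14.

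The genes whose readings were most like those of the Nr1d2 probe near 10 over the arrays read were Exoc2, Tab2 and Rexo2. Their root mean square differences from it, after each probe's mean was taken off, were 0.187 over 18 arrays, 0.195 over 17 and 0.214 over 15, against a median of 0.557 over 1648 probes compared. In HAL they had differences of -0.55, -0.45 and -0.76 (adjusted p = 0.00601, 0.0226 and 0.0157 in limma). In HEP none passed in limma, with differences of -0.30, -0.33 and -0.49 (adjusted p = 0.174, 0.209 and 0.205). Likeness here includes the difference between groups.

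Endothelial markers were at 10 or above on all arrays for 11 of the 13 genes measured, among them Cldn5, Pecam1 and Flt1. The same held for 4 of 10 pericyte, 4 of 8 smooth muscle, 4 of 7 perivascular fibroblast and 3 of 8 astrocyte markers, and 0 of 10 neuron, 0 of 9 microglia, 0 of 5 neutrophil and monocyte and 0 of 6 hepatocyte markers. Among oligodendrocyte markers 1 of 8 was at this level (Mbp), among red cell markers 1 of 4 (Hbb) and among choroid plexus markers 0 of 5. A further 3 neuron, 3 oligodendrocyte, 3 pericyte and 3 astrocyte markers had a probe near 10 but none at this level. So did 1 endothelial, 1 smooth muscle, 1 fibroblast, 1 hepatocyte and 1 choroid plexus marker. In these bulk samples fewer cells of a type and less RNA per cell cannot be told apart. In HAL 0 of 18 endothelial probes passed in limma, and Atp13a5 of the pericytes and Col3a1 of the fibroblasts did. In HEP 0 marker probes passed. The part of cell composition in the Nr1d2 values was not tested. Median readings near 10 ran from 9.95 to 10.20 over the 24 arrays.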

How the data were processed

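Each of the 24 rat microvessel samples was measured on its own Affymetrix array. Per the submitters' processing notes the deposited values are log2 signals made with RMA (version: not given in the sources used here). The table as provided holds 746376 whole numbers, read as what remains of log2 values with 10 significant digits once the integer and any leading or trailing zeros are lost. This reading was inferred from the numbers. The labelling kit in the labels is one for whole-transcript arrays, while the probe names are those of a 3' expression array. In the readings of probes near 10 shorter cells were left missing. For decimals a short cell was read with its lost zeros in front or behind, whichever lay nearer the circular mean of the full-length cells. This held for probes near 10 as well, in their circular means, permutation tests and comparisons by decimals. In probes compared by decimals the deviation from the probe's circular mean, wrapped at 0.5, was tested in limma. limma 3.58.1 (R 4.3.3, lmFit and eBayes) was fitted over all 24 arrays with group means, with Benjamini-Hochberg adjustment over 2526, 1933 and 26639 probes near 10, at 10 or above and below 10. A probe needed 2 readings in each group. Exact permutation tests of the summed resultant lengths of both groups, which have no direction, used Python 3.11.15 with numpy 2.4.6 and pandas 2.3.3. Scripts were tested on simulated data with less spread between arrays than most clock probes near 10 had. That test says little about decimals that spread around the whole circle. No filter on dim probes was applied, since decimals give no level.

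All 20 member probes had their Entrez identifier in the gene table of GRCr8, with 0 changed symbols. The members, lists and the range of 1 to 14 cells were chosen with earlier results of these data known. Values are given for all members, for other clock genes by a pass or the smallest p, and for the 3 most alike genes by root mean square difference. Alternatives were the range of cells, the reading of short cells, decimals near 10, array centring and weights, a fit of 2 groups, a replicate block, a filter on clustering, 1 joint fit, the opening of the circle and leaving out arrays. The authors' number of arrays limits the precision.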

Additional observations from a re-analysis of the deposited data

Results flagged for a closer look

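Over the 60 sets of 8 or fewer values formed by 20 probes and 3 groups, 3 held an array far from the others by Dixon's criterion, which flags about 1 in 20 sets by chance. For Per3 (1388239_at) Sham array 8 read 9.12, and the nearest other Sham array 9.94. For Bhlhe40 (1369415_at) HEP array 8 read 9.46, and the nearest other HEP array 10.45. For Hlf (1374709_at) the decimals of Sham array 2 were 0.707, and the nearest others 0.891.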

How the results depend on the processing

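The 2 clock probes passing in HAL minus Sham became 1 in a joint fit over all probes, 1 with probes near 10 compared by decimals and 1 with short cells of decimals read with leading zeros, a setting chosen after seeing the data. It was also 1 with the opening of the circle moved up by 0.1, and 2 with it moved down by 0.1, both chosen after seeing the data, while the count in HEP was 1. The count was 0 in the exact permutation test and 0 among probes with a resultant length of at least 0.5, a filter that removes both called probes. The 1 probe passing in HEP minus Sham became 0 in the joint fit, 0 by decimals, 0 in the permutation test and 0 under that filter, and 2 with array weights and 2 with arrays centred. Read by decimals, the Nr1d2 probe near 10 changed sign, to 0.32 in HAL and 0.23 in HEP (adjusted p = 0.347 and 0.576 in limma), and likewise in the joint fit (0.32 and 0.23, adjusted p = 0.199 and 0.474), since decimals do not hold the integer that sets its direction. In both settings Hlf near 10 went from -0.24 to 0.29 in HEP, Bhlhe41 from 0.29 to -0.21 in HAL and Clock near 10 from -0.68 to -0.020 in HEP, none of them a call. With single arrays left out the count stayed at 2 in HAL and ran from 0 (without HEP array 1) to 3 (without HEP array 8) in HEP. HAL minus HEP had 0 under each alternative. With the 3 arrays of low median left out together, chosen after seeing the data, the counts were 2, 1 and 0. Arrays of the same number in different groups had correlations of residuals from -0.062 to 0.094 (median 0.0010, 24 pairs). For different numbers they ran from -0.096 to 0.097 (median -0.0030, 168 pairs). Even so, 9 of 24 arrays were closest to an array of their own number, more than an even draw among the other groups would give. What the numbers stand for is not in the labels, and they were not taken as pairs. With the replicate block the counts were 2, 1 and 0. Depth of signal over background is unknown without the integer parts.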
